A study of Mus musculus with 12 samples.

Results

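Saa3, Lcn2, Hp, S100a8, S100a9 and Pglyrp1 are 6 genes of acute-phase proteins and alarmins, out of 30063 genes with a symbol on the array. They were chosen by symbol, and the transcript cluster with the highest mean over the 12 arrays was to stand for each. Each gene had exactly 1 cluster, so that no choice between clusters was made. The 12-array mean log2 intensities were 6.48 for Saa3, 6.89 for Lcn2, 14.38 for Hp, 17.92 for S100a8, 16.57 for S100a9 and 11.66 for Pglyrp1. The rise of Saa3 with MEC1 was known when the group was put together, so its values in MEC1 mice are given as a description, with no test of the rise. The other genes and the lists below were also chosen with earlier results of these data known. Their p-values take no account of that choice.

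RNA came from monocytes and macrophages of mouse bone marrow, purified magnetically, with 1 whole-transcriptome array per mouse. All 12 animals were BALB/c mice with deleted Rag2 and common gamma chain genes, controls included, and therefore had no mature T, B or natural killer cells. MEC1, an established human cell line from chronic lymphocytic leukemia, was injected intravenously into the leukemic mice and engrafts such hosts. Of these, 3 were taken at 31 days, aged 13 weeks (MEC1 31 d), beside 3 age-matched mice without MEC1 (control 31 d). A further 3 were taken at 21 days, aged 11 weeks (MEC1 21 d), beside 3 age-matched mice without MEC1 (control 21 d). The question was how these transcripts differed between leukemic and healthy marrow, early and late in the disease.

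Acute-phase proteins are secreted in large amounts when interleukin 1, interleukin 6 or tumour necrosis factor signal inflammation, mostly by the liver but also by myeloid cells. Saa3 is the mouse serum amyloid A made chiefly outside the liver, in macrophages among other cells. Lipocalin 2 (Lcn2) withholds iron from bacteria by binding their siderophores, and haptoglobin (Hp) captures free hemoglobin. S100a8 and S100a9 pair to form calprotectin, which binds calcium and zinc and acts as an alarmin when released, and Pglyrp1 binds bacterial peptidoglycan. In the bone marrow these genes are also used by maturing neutrophils, whose granules hold lipocalin 2, haptoglobin and Pglyrp1.

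Promoter sequence was at hand for 5 of the 6 genes, from RefSeq on GRCm38.p6, and is shown because all are used by myeloid cells. In the 250 bases before each start of transcription 4 motifs were searched on both strands, none of which overlapped another where found. The C/EBP motif TTGCNNAA was found in Saa3, Lcn2 and S100a9, that is in 3 of 5 genes, against 9.56% of 32851 promoters. The NF-kB motif, GGG and TTCC with 3 free bases between, was found in Pglyrp1 alone (4.65% of all promoters) and the PU.1 motif GAGGAAGT in S100a8 alone (2.44%). The STAT motif TTCNNNGAA was in none of the 5, against 7.02% of all. The stretches of 90 bases around each match lie at chr7:46715727-46715816 on the minus strand for Saa3, chr2:32387900-32387989 minus for Lcn2, chr3:90695882-90695971 minus for S100a9, chr3:90668858-90668947 plus for S100a8 and chr7:18884557-18884646 plus for Pglyrp1. Capitals mark the match, and a match is a description of letters and no evidence of binding.
Saa3: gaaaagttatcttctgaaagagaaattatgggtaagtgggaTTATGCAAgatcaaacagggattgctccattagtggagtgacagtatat
Lcn2: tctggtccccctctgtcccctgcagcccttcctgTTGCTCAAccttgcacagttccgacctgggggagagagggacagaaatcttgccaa
S100a9: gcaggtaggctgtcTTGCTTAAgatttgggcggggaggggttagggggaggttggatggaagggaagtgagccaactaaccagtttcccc
S100a8: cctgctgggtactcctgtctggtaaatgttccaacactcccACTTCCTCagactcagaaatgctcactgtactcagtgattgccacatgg
Pglyrp1: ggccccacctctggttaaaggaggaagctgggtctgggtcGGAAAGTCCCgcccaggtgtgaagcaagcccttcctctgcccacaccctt

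The arrays of MEC1 mice differed as a whole. The mean log2 intensity of 4 hybridisation controls, added in fixed amounts, was 12.15 to 13.18 in MEC1 31 d and 10.47 to 10.70 in control 31 d, and 11.80 to 12.0 in MEC1 21 d and 10.71 to 10.87 in control 21 d. Centring each array on its median lowered every change by 0.43 at 31 days and by 0.20 at 21 days. MEC1 31 d replicate 3 stood apart by an amount that varied with brightness. Its median log2 difference from the mean of replicates 1 and 2 was 0.18 over 22755 clusters with control 31 d means below 6, and -0.305 over 10725 from 6 to 10. It was -0.92 over 2728 clusters from 10 to 14, -1.37 over 527 from 14 to 16 and -0.455 over 505 above that, where S100a8 and S100a9 lie. In replicate 3 each of the 6 genes was further below the mean of replicates 1 and 2 than the median of its level. Saa3 was placed there by its dim control level. The spread around those medians is not given, and the part of brightness in the gap was not tested. The difference was -1.98 for Saa3, -0.965 for Lcn2, -1.615 for Hp, -2.445 for S100a8, -1.555 for S100a9 and -3.03 for Pglyrp1. Some genes went up in replicate 3, such as the erythroid genes Rhag (2.14) and Car1 (2.265). Whether the array or the mouse differed was not tested. Changes of the 6 genes and of the lists at 31 days are therefore also given without that array, which is no correction of them. Log2 changes are from a limma fit over 37240 clusters bright enough to test, with Benjamini-Hochberg adjusted p-values and a threshold of 0.05. In the MEC1 against control comparison at 31 days 43.8% of the clusters passed, 22.6% as rises and 21.1% as falls, and at 21 days 4.34% passed, 1.83% as rises and 2.51% as falls. Median changes at 31 days also varied with brightness. They were 0.33 for control 31 d means below 6 and -0.70 from 6 to 10. From 10 to 14 the median was -1.04, from 14 to 16 -0.75 and at 16 or above -0.34.

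Saa3 had the widest separation of the 6 genes. At 31 days its log2 intensity was 10.89, 11.01 and 8.97 in the 3 MEC1 mice, against 4.27, 4.29 and 4.18 in the 3 control mice. At 21 days it was 6.49, 7.38 and 6.76 in MEC1 mice, against 4.95, 4.40 and 4.18 in control mice. The groups did not overlap on either day, as 59.6% of all tested clusters also did not at 31 days and 28.5% at 21 days. In control mice Saa3 lay only 0.36 to 1.02 above the array median, close to the level of dim clusters, so that its fold changes may be understated. The log2 change was 6.04 at 31 days (95% interval 5.01 to 7.07), a fold change of 66.0, and 2.37 at 21 days (1.34 to 3.40), a fold change of 5.16. The intervals of Saa3, here and below, take no account of its choice by that rise and are not a test. Without MEC1 31 d replicate 3, the lowest of its group, the change at 31 days was 6.70.

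**Figure D1:**
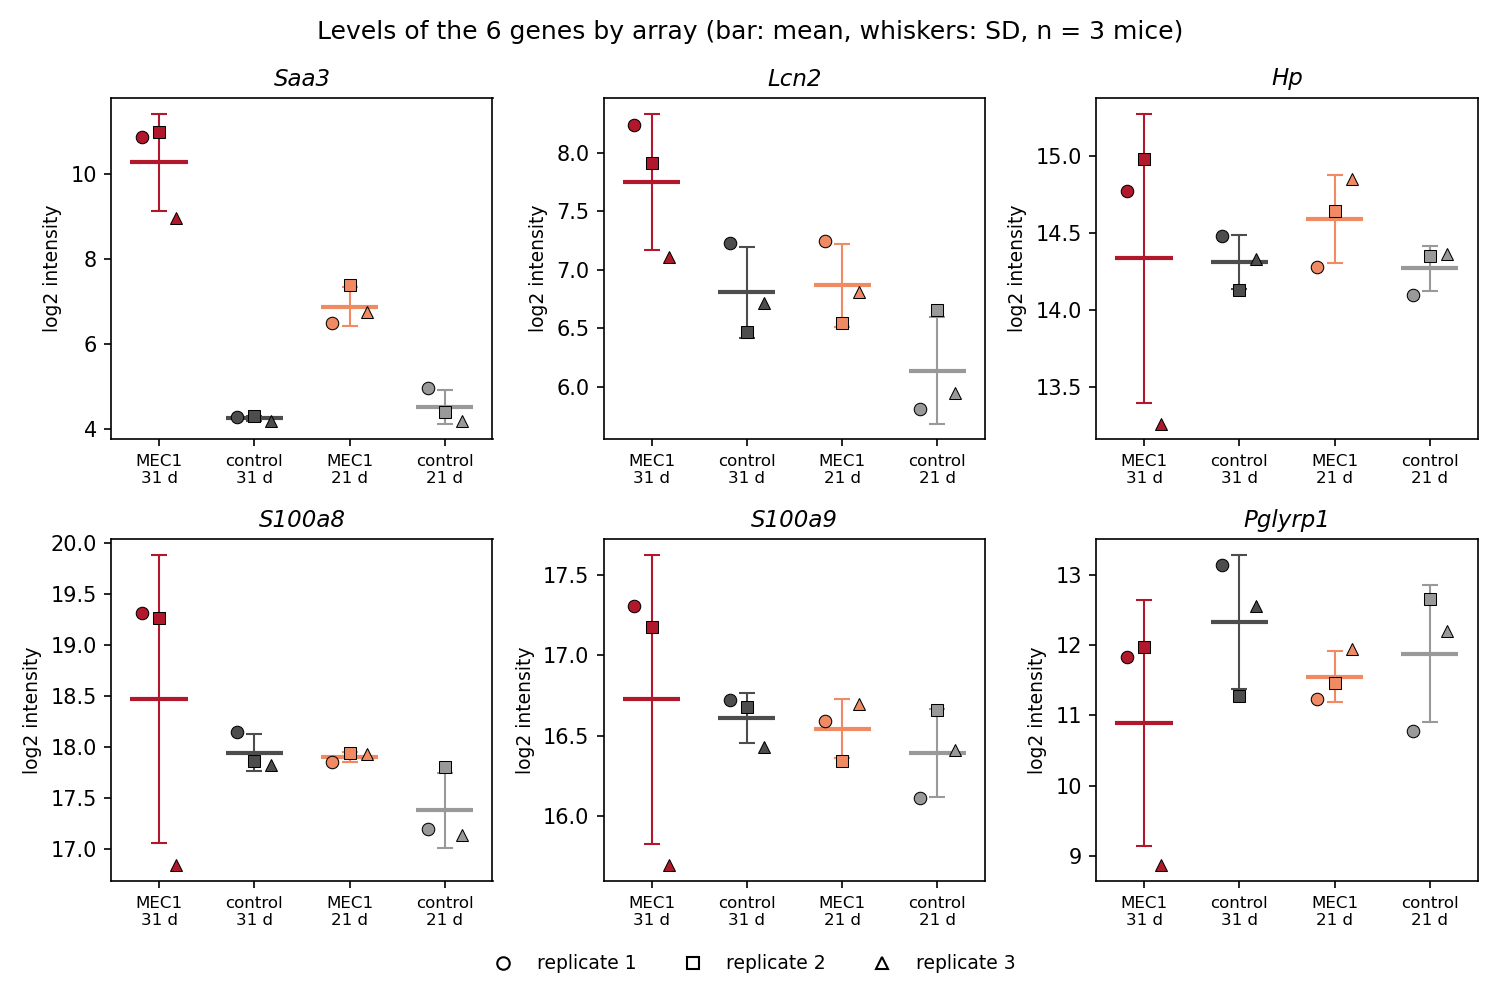
Log2 intensity (vertical axis) of the 6 genes in each of the 12 arrays, by group along the horizontal axis, with 1 marker shape per replicate number, the mean as a bar and the SD as whiskers (n = 3 mice). Saa3 in MEC1 31 d lies between 8.97 and 11.01 and in control 31 d between 4.18 and 4.29, and replicate 3 is the lowest MEC1 31 d array for every gene.

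Lcn2 was the one other gene of the group that passed at 31 days. Its log2 intensity was 8.24, 7.91 and 7.11 in MEC1 mice, against 7.23, 6.47 and 6.72 in control mice, so that the lowest leukemic mouse lay under the highest healthy one. The change was 0.95 (SE 0.34, 95% interval 0.21 to 1.69, adjusted p = 0.0413, limma), or 1.93-fold. The call was lost with arrays centred on their median (0.52, adjusted p = 0.274) and in 6 of the 12 fits that left out 1 array. Those fits left out MEC1 31 d replicate 1 (adjusted p = 0.128) or 2 (0.101), MEC1 21 d replicate 3 (0.0502), control 31 d replicate 2 (0.134) or 3 (0.1004), or control 21 d replicate 3 (0.0523). Without MEC1 31 d replicate 3 the change was 1.27 (adjusted p = 0.0169). At 21 days Lcn2 stood at 7.25, 6.55 and 6.81 in MEC1 mice, against 5.81, 6.66 and 5.95 in control mice. The groups overlapped, and the change of 0.73 (interval -0.01 to 1.47) did not pass (adjusted p = 0.219).

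S100a8 and S100a9, the subunits of calprotectin, were bright in every array. At 31 days S100a8 was 19.31, 19.26 and 16.84 in MEC1 mice, against 18.15, 17.86 and 17.82 in control mice. Replicates 1 and 2 with MEC1 lay above all controls and replicate 3 below all of them. In those 2 mice S100a8 was only 0.18 and 0.20 under the highest value of its array, so that a rise there may be cut short. S100a9 had the same order, with 17.31, 17.18 and 15.69 in MEC1 mice, against 16.72, 16.68 and 16.43 in control mice. Over all arrays the change of S100a8 was 0.53 (interval -0.63 to 1.69, adjusted p = 0.425) and that of S100a9 0.12 (-0.67 to 0.90, adjusted p = 0.800), the second turning to -0.31 with arrays centred on their median. Without MEC1 31 d replicate 3 S100a8 had a change of 1.34 (SE 0.21, adjusted p = 0.0025) and S100a9 one of 0.64 (SE 0.19, adjusted p = 0.035), both past the threshold in limma with 2 MEC1 mice left. In that fit 29.2% of all clusters passed, 14.7% as rises and 14.4% as falls.

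At 21 days S100a8 was 17.85, 17.94 and 17.93 in MEC1 mice, against 17.20, 17.80 and 17.14 in control mice. All leukemic mice were above all healthy ones, as in 14.9% of all clusters, and the change of 0.53 did not pass (interval -0.63 to 1.69, adjusted p = 0.552). S100a9 was 16.59, 16.34 and 16.70 in MEC1 mice, against 16.11, 16.66 and 16.41 in control mice. Its groups overlapped, with a change of 0.15 (interval -0.64 to 0.94, adjusted p = 0.815) that was -0.05 with arrays centred on their median.

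Haptoglobin did not pass on either day. At 31 days Hp was 14.77, 14.98 and 13.26 in MEC1 mice, against 14.48, 14.13 and 14.33 in control mice, again with MEC1 replicates 1 and 2 above and replicate 3 below all controls. The change was 0.02 (interval -0.79 to 0.84, adjusted p = 0.962), -0.41 with arrays centred on their median and 0.56 without replicate 3 (adjusted p = 0.0558). At 21 days Hp was 14.28, 14.64 and 14.85 in MEC1 mice, against 14.10, 14.35 and 14.36 in control mice, with overlap and a change of 0.32 (interval -0.49 to 1.13, adjusted p = 0.610).

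Pglyrp1 had the one negative change of the group. At 31 days it was 11.83, 11.97 and 8.87 in MEC1 mice, against 13.14, 11.28 and 12.56 in control mice. The control mice alone spanned 11.28 to 13.14, and MEC1 replicates 1 and 2 lay inside that span. The change of -1.44 did not pass (interval -3.19 to 0.32, adjusted p = 0.157) and was -0.43 without MEC1 31 d replicate 3 (adjusted p = 0.601). At 21 days Pglyrp1 was 11.24, 11.46 and 11.95 in MEC1 mice, against 10.78, 12.65 and 12.20 in control mice, with a change of -0.33 (interval -2.08 to 1.43, adjusted p = 0.819).

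**Figure D2:**
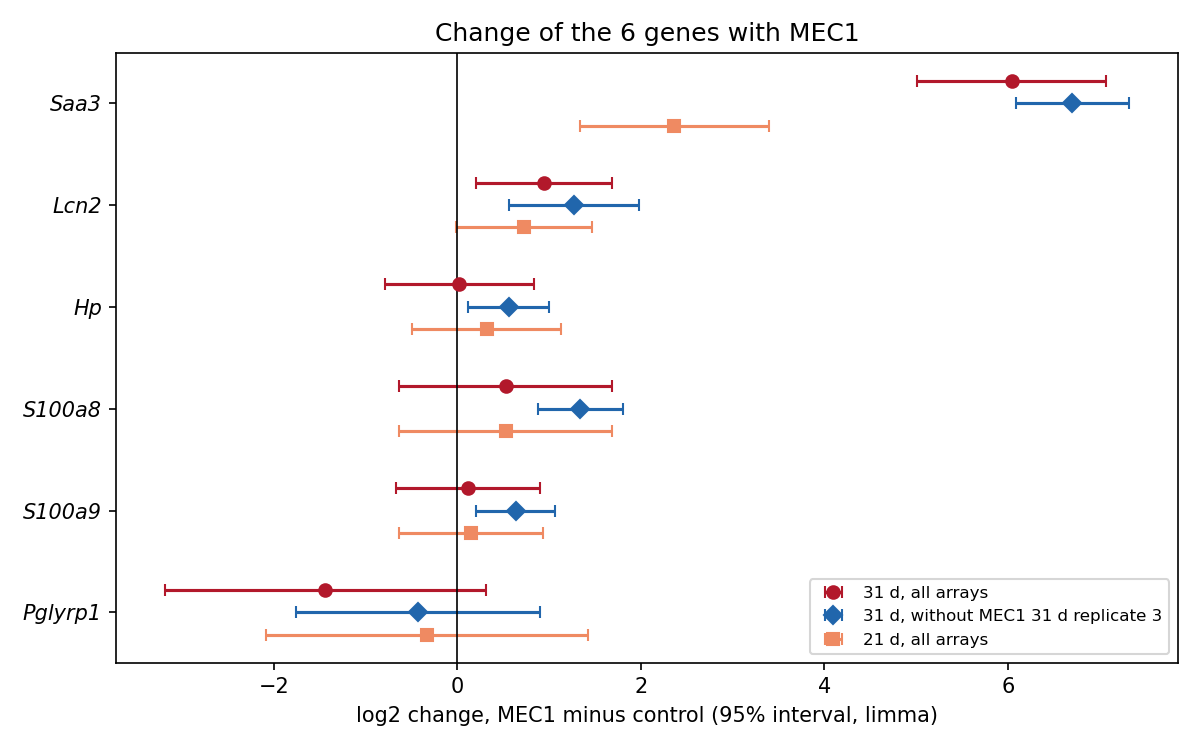
Log2 change with MEC1 (MEC1 minus control, horizontal axis) of the 6 genes, with 95% intervals from limma, at 31 days with all arrays, at 31 days without MEC1 31 d replicate 3, and at 21 days. Saa3 lies at 6.04, 6.70 and 2.37, and the interval of S100a8 excludes 0 only without replicate 3.

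Of the 5 genes other than Saa3, 1 rose and none fell at 31 days, a median change of 0.12 beside 0.04 over all clusters. Over clusters of like brightness the medians were lower. They were -0.70 for control 31 d means from 6 to 10 (Lcn2) and -1.04 from 10 to 14 (Pglyrp1). From 14 to 16 (Hp) the median was -0.75 and at 16 or above (S100a8 and S100a9) -0.34. With MEC1 31 d replicate 3 left out, 3 of the 5 rose, and none passed at 21 days. In limma's fit across all clusters Lcn2 was also the one gene of the 5 with an unadjusted p under 0.05 at 31 days (0.0168). At 21 days none was, and Lcn2 came nearest (0.0526, limma). The counts at 31 days are read against the 22.6% of rises over all clusters and, without that array, 14.7%. That at 21 days is read against the 4.34% of clusters that passed then.

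The 2 days were then set against each other. In leukemic mice 0.226% of all clusters passed for 31 against 21 days, 0.137% as rises and 0.0886% as falls, and none of the 5 genes did. Saa3 was higher at 31 days by 3.41 (interval 2.38 to 4.44; 4.07 without MEC1 31 d replicate 3), with no overlap between the days, where 17.7% of clusters did not overlap and 8.27% were higher at 31 days in that way. Lcn2 had a change of 0.88 (interval 0.14 to 1.62, adjusted p = 0.229, p before adjustment = 0.0235), and the other 4 lay between -0.66 for Pglyrp1 and 0.56 for S100a8. Without MEC1 31 d replicate 3 S100a8 passed here too (1.38, adjusted p = 0.0487). In healthy mice 0.00806% of clusters passed and none of the 6 genes did, with changes from -0.26 for Saa3 (adjusted p = 0.983) to 0.67 for Lcn2 (adjusted p = 0.819). S100a8 was higher by 0.56 at 31 days in healthy mice without overlap of the groups, where 14.3% of clusters did not overlap, 6.22% with the higher values at 31 days (interval -0.60 to 1.72, adjusted p = 0.967).

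The MEC1 effect of Saa3 was larger at 31 than at 21 days by 3.68 on the log2 scale (interval 2.22 to 5.13). It was 4.34 without MEC1 31 d replicate 3, and was not tested, since the rise chose the gene. For the other 5 the difference lay between -1.11 for Pglyrp1 and 0.22 for Lcn2, and none passed, where 1 cluster of 37240 did (0.00269%). For S100a8 it was 0.00 (interval -1.64 to 1.64).

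Of 18 other acute-phase genes listed, 17 were on the array. Their mean log2 level was 4.69 to 4.88 in MEC1 31 d, against 3.91 to 3.996 in control 31 d. It was 4.21 to 4.56 in MEC1 21 d, against 3.89 to 3.97 in control 21 d. The groups did not overlap on either day. Of tested clusters taken singly, 59.6% also did not at 31 days and 28.5% at 21 days. The array medians were 4.13 to 4.40 in MEC1 31 d, against 3.80 to 3.81 in control 31 d. They were 3.93 to 4.20 in MEC1 21 d, against 3.82 to 3.93 in control 21 d. Only 9 of the 17 were bright enough to test, of which 6 passed as rises at 31 days and none fell, against 22.6% of rises over all clusters. All of the 9 but Orm1 had control 31 d means below 6, where clusters in general moved up. Over all clusters of that level the median change was 0.33, beside 1.18 for the 9 genes, and the share of rises at that level was not counted. Of those 6, Cp and Serpina3n were under the median of every control array and were tested through MEC1 arrays alone, so that the count is partly set by the brightness filter. The rises were 4 after median centring, 4 with quantile normalization and 7 without MEC1 31 d replicate 3. Cp, the copper carrier ceruloplasmin, was 6.14, 5.54 and 5.34 in MEC1 31 d, against 3.62, 3.62 and 3.51 in control 31 d. It was 5.04, 4.88 and 4.55 in MEC1 21 d, against 3.67, 3.62 and 3.62 in control 21 d. The changes of Cp were 2.09 at 31 days (2.26 without MEC1 31 d replicate 3) and 1.19 at 21 days. No p is given for Cp, since its control values lay under the array medians and the MEC1 arrays alone brought it into the test.

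Orm1, the plasma carrier orosomucoid, was 8.88, 8.74 and 6.71 in MEC1 31 d, against 5.84, 6.47 and 6.00 in control 31 d. It rose by 2.01 (SE 0.51, adjusted p = 0.0111, limma), with replicate 3 again lowest (2.71 without it), and its change at 21 days was 0.62 (adjusted p = 0.471). Saa1 and Saa2, liver-type serum amyloids singled out after their values were seen, had changes of 1.62 and 1.18 at 31 days (adjusted p = 0.000559 and 0.00732) and 0.84 and 0.53 at 21 days (adjusted p = 0.0473 and 0.265). The call of Saa1 at 21 days was lost with median centring (0.64, adjusted p = 0.0746) and with quantile normalization (0.86, adjusted p = 0.0816). The changes at 31 days were 1.57 for Saa1 and 0.83 for Saa2 without MEC1 31 d replicate 3. The 2 genes are near-identical copies, so that signal between them cannot be assigned surely.

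**Figure D3:**
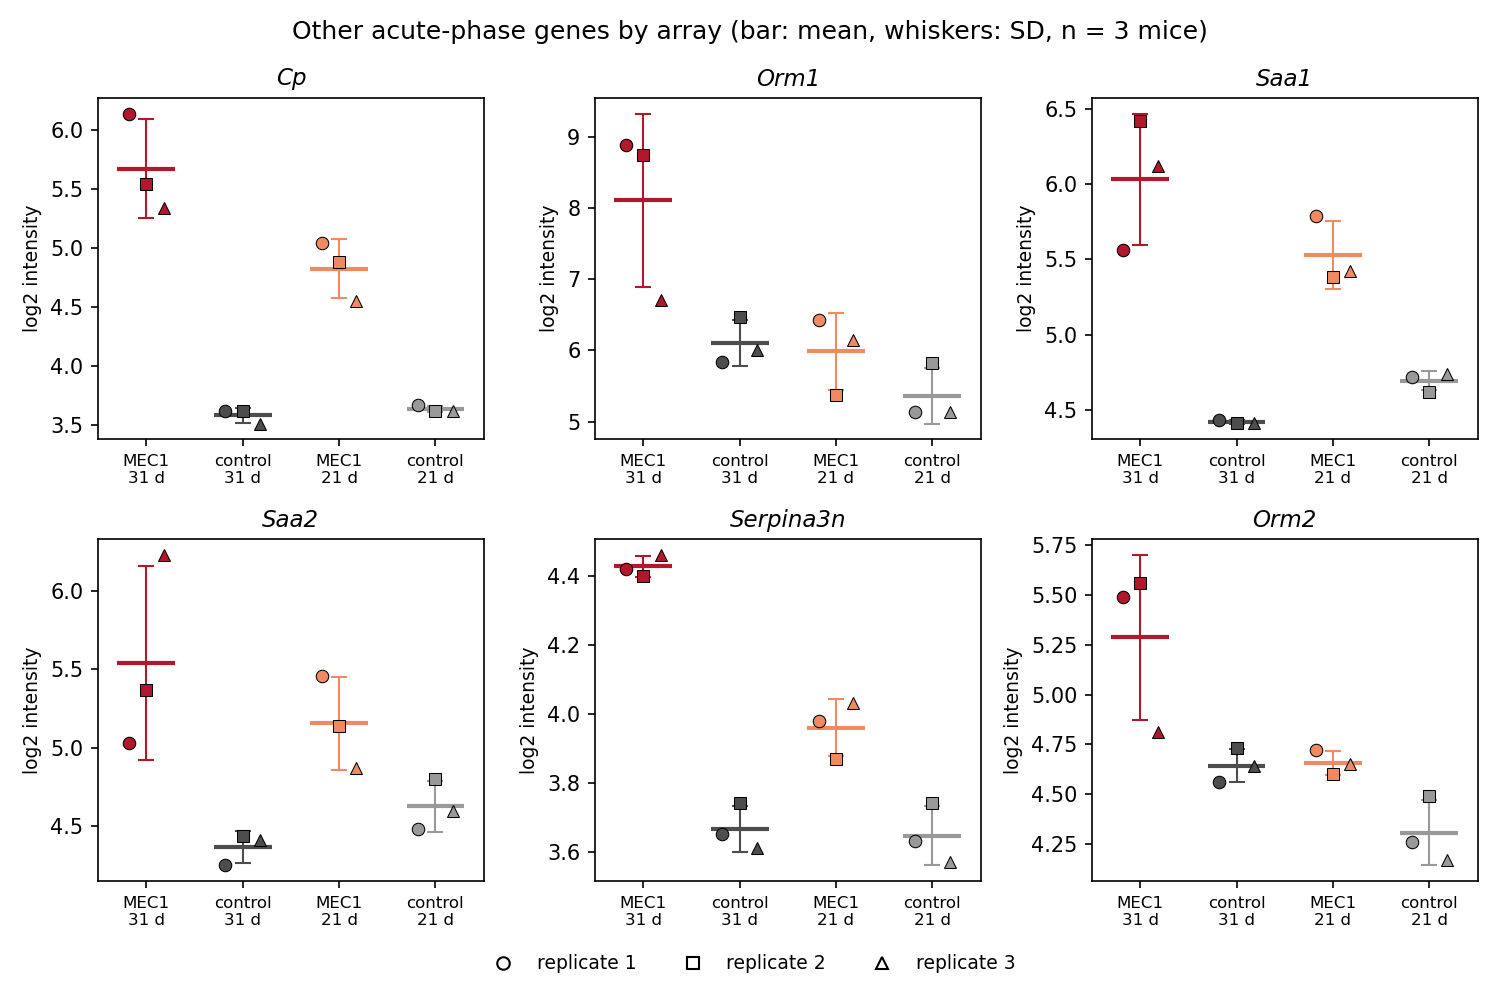
Log2 intensity (vertical axis) of the 6 other acute-phase genes that passed at 31 days, by group along the horizontal axis, with 1 marker shape per replicate number, the mean as a bar and the SD as whiskers (n = 3 mice). Cp lies between 5.34 and 6.14 in MEC1 31 d and between 3.51 and 3.62 in control 31 d, and Cp and Serpina3n were tested through MEC1 arrays alone.

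The other S100, peptidoglycan recognition and alarmin genes moved both ways. Of 12 tested, 3 rose and 4 fell at 31 days (median -0.24), near the shares of 22.6% and 21.1% over all clusters. The counts were 2 and 1 without MEC1 31 d replicate 3 (median -0.05), 0 and 5 after median centring, and 1 and 2 with quantile normalization. S100a4, an S100 protein of motile cells, fell by 1.39 (SE 0.36, adjusted p = 0.0112, limma), and Hmgb2, a chromatin protein, fell by 1.47 (adjusted p = 0.0183). Il1a, the interleukin 1 alpha alarmin, rose by 1.12 (adjusted p = 0.0130) and S100a14 by 0.67 (adjusted p = 0.00966). With arrays centred on their median neither of those rises passed (0.69 and 0.24), and without MEC1 31 d replicate 3 the change of Hmgb2 did not (-0.98, adjusted p = 0.0594). Without it the changes were -0.95 for S100a4, 1.46 for Il1a and 0.60 for S100a14. At 21 days 1 of the 12 passed, S100a4, with a change of -1.86 (adjusted p = 0.0224), where 4.34% of all clusters passed, 2.51% as falls.

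Of 12 tested receptors and partners 1 rose and 3 fell at 31 days, shares no higher than 22.6% of rises and little above 21.1% of falls over all clusters. The counts were the same without MEC1 31 d replicate 3 and with quantile normalization, and 0 and 5 after median centring. Trem1, a myeloid receptor that human PGLYRP1 can engage, was 12.95, 13.68 and 12.17 in MEC1 mice, against 11.03, 10.59 and 12.01 in control mice. Its change was 1.72 (SE 0.49, adjusted p = 0.0170, limma), and 1.29 with arrays centred on their median, which did not pass (adjusted p = 0.0684). At 21 days Trem1 was 12.74, 13.63 and 12.99 in MEC1 mice, against 12.08, 13.51 and 12.63 in control mice. From 21 to 31 days it changed by -1.53 in control mice (adjusted p = 0.4765, limma) and by -0.19 in MEC1 mice. The mean of control mice was lower at 31 days, by a change that did not pass, and that of MEC1 mice was not higher. Bsg, the S100A9-binding surface protein basigin, fell by 2.50 (adjusted p = 0.00226) and Cd36, a scavenger receptor, by 1.86 (adjusted p = 0.000895). With MEC1 31 d replicate 3 left out the changes were 2.10 for Trem1, -2.11 for Bsg and -2.002 for Cd36. The lipopolysaccharide and S100 receptor Tlr4 had a change of -0.15 (adjusted p = 0.626). At 21 days none of the 12 rose and 2 fell, Cd36 being 1 of them (-1.50, adjusted p = 0.0175), against 1.83% of rises and 2.51% of falls over all clusters.

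Among 22 tested cytokines, signalling molecules and transcription factors that drive acute-phase genes, 3 rose and 9 fell at 31 days (median -0.45), against 22.6% of rises and 21.1% of falls over all clusters. The counts were 3 and 8 without MEC1 31 d replicate 3 (median -0.365), 1 and 14 after median centring, and 5 and 8 with quantile normalization (median -0.28). Il1b, the interleukin 1 beta cytokine, rose by 2.03 (SE 0.21, adjusted p = 0.000246, limma), with 8.90, 8.83 and 8.57 in MEC1 mice, against 6.33, 6.74 and 7.13 in control mice. Relb, an NF-kB subunit, was higher than in control mice by 0.64 (adjusted p = 0.0101, limma), though its change was 0.21 with arrays centred on their median (adjusted p = 0.415). The mean of Relb was 6.67 in MEC1 31 d, 6.58 in MEC1 21 d and 6.66 in control 21 d. Only control 31 d was lower, at 6.03. Il6ra, the interleukin 6 receptor, fell by 3.29 (adjusted p = 0.000543) and Cebpa, a C/EBP factor of myeloid cells, by 2.49 (adjusted p = 0.00207). Leaving out MEC1 31 d replicate 3 gave 2.13 for Il1b, 0.76 for Relb, -2.70 for Il6ra and -1.93 for Cebpa. Il6 itself had a change of -0.09 (adjusted p = 0.865) and Stat3, the transcription factor below its receptor, one of 0.32 (adjusted p = 0.125). Il1b was also higher at 31 than at 21 days in leukemic mice, by 1.32 (adjusted p = 0.0364), a call lost without MEC1 31 d replicate 3 (1.42, adjusted p = 0.0612), and its change at 21 days was 0.32 (adjusted p = 0.357). At 21 days none of the 22 rose and 2 fell, Il6ra being 1 of them (-1.94, adjusted p = 0.0309). Over all clusters 1.83% rose and 2.51% fell at 21 days.

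Because these genes are also neutrophil genes, 18 neutrophil markers were read beside them. All 18 were tested, none was at 0, and at 31 days none rose and 8 fell (median -1.26), against 21.1% of falls over all clusters. Bright clusters in general moved down. The median change was -1.04 over all clusters with control 31 d means from 10 to 14, -0.75 from 14 to 16 and -0.34 at 16 or above. Many of these markers, and of the monocyte markers below, lie at such levels. Their mean log2 level was 11.09, 11.15 and 9.11 in MEC1 31 d, against 11.52 to 11.84 in control 31 d, and 10.73 to 11.13 in MEC1 21 d, against 10.62 to 11.56 in control 21 d. Without MEC1 31 d replicate 3 none rose and 6 fell (median -0.43), against 14.4% of falls over all clusters. Csf3r, the receptor for the granulocyte growth factor, fell by 3.03 (adjusted p = 0.00107, limma; -2.31 without that array) and the granule protein gene Ltf by 2.96 (adjusted p = 0.0471), though without that array Ltf had a change of -1.39 (adjusted p = 0.111). At 21 days none of the 18 passed, where 4.34% of all clusters did. Of 10 monocyte and macrophage markers, which check the labelled cell type, 8 fell and 1 rose at 31 days (7 and 1 without MEC1 31 d replicate 3), and their mean level was 9.79 to 11.22 in MEC1 31 d, against 11.83 to 11.94 in control 31 d. Cd68, a lysosomal macrophage marker, fell by 2.49 (adjusted p = 0.00206) and Cx3cr1, the fractalkine receptor, by 2.27 (adjusted p = 0.000348), with changes of -1.99 and -2.15 without that array. The 1 rise was Mertk, a receptor for uptake of dead cells, at 4.89, 5.18 and 5.48 in MEC1 31 d, against 3.59, 3.46 and 3.40 in control 31 d. It was under the median of all 6 control arrays and tested through MEC1 arrays alone, so no p is given for it. In such bulk RNA fewer cells of a type and less RNA per cell cannot be told apart, and the part of cell composition in the changes of the 6 genes was not tested.

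In a fit that adds the level of the hybridisation controls, which nearly follows the groups, as a covariate, the median changes at 31 days of the neutrophil, monocyte, cytokine and S100 lists turned positive, and none of their genes passed. Saa3 had a change of 9.91 in that fit.

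**Figure D4:**
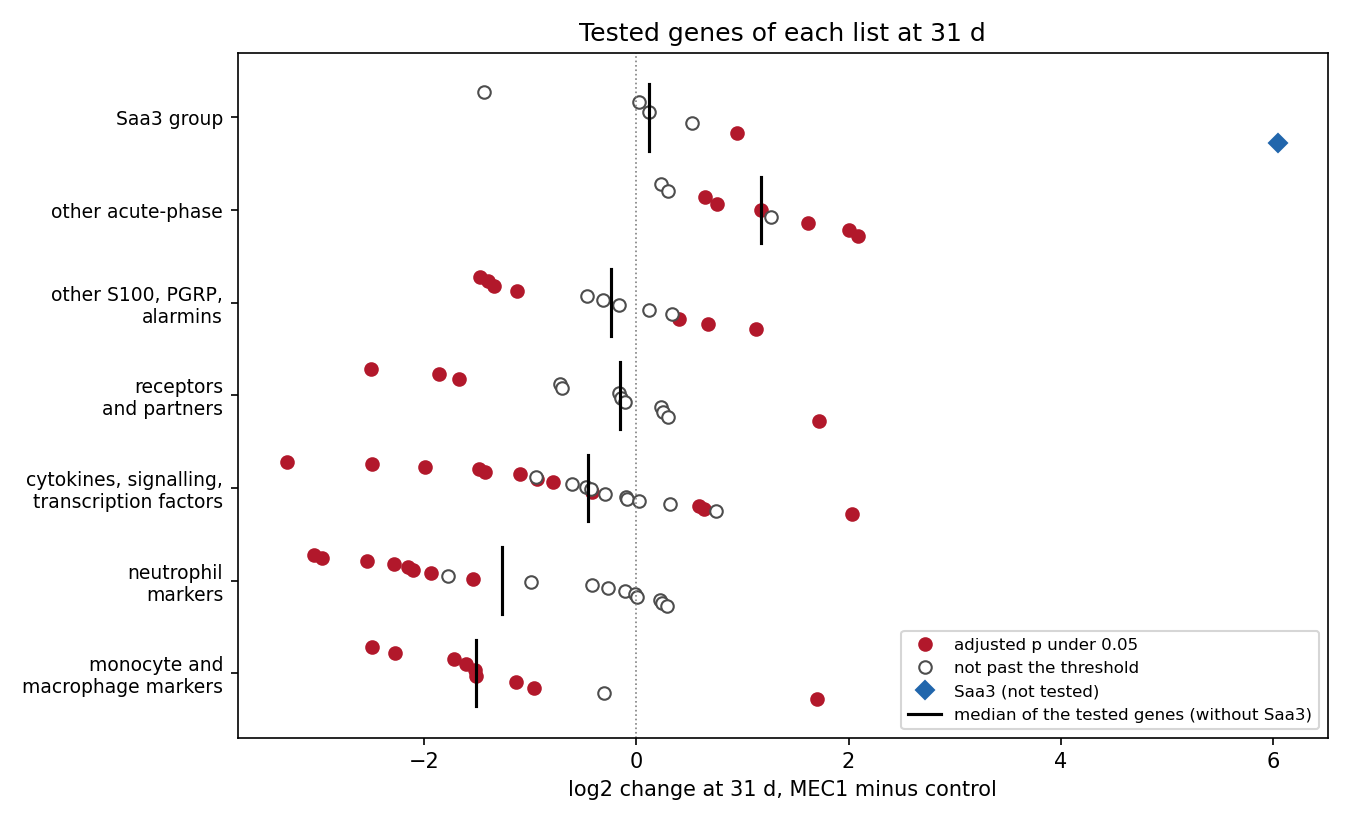
Log2 change at 31 days (MEC1 minus control, horizontal axis) of each tested gene, by list, with filled circles for an adjusted p under 0.05, open circles otherwise, a diamond for Saa3 and a line at the median. The 18 neutrophil markers lie between -3.03 and 0.29 and the 9 other acute-phase genes between 0.23 and 2.09, where Cp, Serpina3n and, among the macrophage markers, Mertk were tested through MEC1 arrays alone.

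The genes whose levels followed each member most closely were ranked by Pearson's r over the 12 arrays among 13639 named clusters. These values are a description, and the points share the 4 groups and the differences between whole arrays. Saa3 was followed by Vcan, the matrix proteoglycan versican (r = 0.983), Cd300lf, an inhibitory myeloid receptor (0.975), and F11r, a junction adhesion molecule (0.966). Vcan averaged 9.85 in MEC1 31 d and 6.03 in control 31 d. Lcn2 was followed by Lipg (0.956), Serpinb1b (0.946) and the acute-phase gene Lrg1 (0.942). S100a8 was followed by Ms4a6d (0.923), N4bp1 (0.921) and Sipa1l1 (0.919). S100a9, with lower values, was followed by Ripor2 (0.901), the neutrophil gene Retnlg (0.893) and Atg5 (0.889). Hp was nearest to Rbx1-ps (0.934), Lcp1 (0.916) and Cfp (0.912), and Pglyrp1 to Ero1a (0.961), Ncoa4-ps (0.946) and Cd63 (0.940). The 2 pseudogenes can share signal with their parent genes.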

How the data were processed

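The deposited values are log2 intensities per transcript cluster, made by the authors with Expression Console and RMA per the submitters' processing notes. Versions and build are not given in the sources used here. The values reach 19.93. Of 72688 features, 6732 controls were left out, which left 65956 clusters. Symbols came from the platform table, updated through RefSeq: 30604 clusters had 1 symbol, 2146 several and 33206 none. A cluster was tested if above its array's median in at least 3 arrays (37240). A model of 4 group means was fitted to all 12 arrays with limma 3.58.1 in R 4.3.3, moderated by empirical Bayes, with two-sided p-values adjusted by Benjamini-Hochberg at 0.05 over all clusters, and was tested on simulated data. The number of arrays limits the precision. Mouse numbers in the labels mark separate animals.

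The 6 genes and all lists were chosen with earlier results of these data known. Named were all 6 genes and, from each list, up to 2 rises and 2 falls that were largest at 31 days, with the 3 clusters most like each gene. Saa1, Saa2, Tlr4, Il6 and Stat3 were named after their values were seen. The alternatives were no filter, quantile normalization, median centring, the arrays of a comparison alone, trend and robust moderation, a replicate block, the hybridisation-control covariate and leaving out each array. Averaging clusters of a gene gave nothing further, since each had 1.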

Additional observations from a re-analysis of the deposited data

How the results depend on the processing

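Among the 5 genes other than Saa3, the count that passed at 31 days was 1. It was 0 after median centring, in the comparison's own 6 arrays and with the hybridisation-control covariate, and 0 to 3 with 1 array left out. For 31 against 21 days with MEC1 it was 0 to 1 with 1 array left out. Median centring turned S100a9 to -0.05 at 21 days and -0.31 at 31 days, Hp to -0.41 at 31 days and the difference of the MEC1 effects of Lcn2 to -0.013. Quantile normalization turned Hp to 0.069 between days with MEC1, and the differences of effects to 0.014 for Hp and 0.35 for S100a9. The covariate turned Pglyrp1 to 2.21 at 21 days, 3.05 at 31 days, 0.85 between days with MEC1 and 0.84 as a difference of effects. It turned Hp to 0.70 between days with MEC1, -0.24 without MEC1 and 0.94 as a difference, and S100a9 to -0.059 between days without MEC1 and 1.19 as a difference. None of these reversed values passed, and the cause was not tested.

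With 1 array left out, Pglyrp1 ranged from -0.88 to 0.06 at 21 days, Hp from -0.30 to 0.56 and S100a9 from -0.175 to 0.635 at 31 days. Between days with MEC1 the ranges were -0.575 to 0.285 for Hp, -0.11 to 0.70 for S100a9 and -1.20 to 0.35 for Pglyrp1, and without MEC1 -0.042 to 0.135 for Hp and -0.10 to 0.97 for Pglyrp1. Differences of effects ranged from -0.043 to 0.54 for Lcn2, -0.62 to 0.24 for Hp and -0.325 to 0.485 for S100a9. Saa3 kept its sign with MEC1 throughout, from 5.68 to 6.70 at 31 days and 2.12 to 2.59 at 21 days. Median centring gave 5.61 and the covariate 9.91 at 31 days. Where a group was left with 2 mice, the spread was pooled over all groups.

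The replicate numbers mark separate mice, and of 18 same-numbered pairs 4 had deviations correlated over 0.1 (-0.358 to 0.415). With the replicate block Lcn2 at 31 days had an adjusted p of 0.0451 (limma) and no count of the 5 genes changed, while the clusters called went to 831 at 21 days and 15 between days with MEC1. Over all clusters 1615 passed at 21 days, against 1066 with quantile normalization, 454 with the comparison's arrays alone, 4 with the covariate and 330 to 2883 with 1 array left out. At 31 days 16297 passed (8430 rises, 7867 falls), against 30065 without the filter (21744 and 8321), 16524 with median centring (2785 and 13739), 10646 with quantile normalization, 7 with the covariate and 10647 to 16847 with 1 array left out. The split at 21 days was 681 rises and 934 falls, 444 and 1461 with centring and 608 and 458 with quantile normalization. Between days with MEC1 84 passed, against 191 with quantile normalization, 20 with centring, 10 with the covariate, 1 with the comparison's arrays alone and 7 to 70 with 1 array left out. Without MEC1 3 passed, against 10 with quantile normalization, 15 with the covariate, 0 with the comparison's arrays alone and 1 to 12. For the difference of effects 1 passed, against 17 with quantile normalization, 4 with the covariate and 1 to 5. Signal near the array median limits Saa3 in control mice, and signal near the array's highest value limits S100a8.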

Other observations

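B cell markers, which mice without Rag2 should lack in mature form, were read at 4 genes, of which 3 were tested. Their mean log2 level was 5.03 to 5.63 in MEC1 31 d, against 4.33 to 4.47 in control 31 d, and 4.84 to 5.11 in MEC1 21 d, against 4.34 to 4.48 in control 21 d. Pax5, a transcription factor of B cells, was 6.72, 6.65 and 7.21 in MEC1 31 d, against 4.70, 4.67 and 4.53 in control 31 d. It rose by 2.23 at 31 days (adjusted p = 8.50e-05, limma) and by 1.34 at 21 days (adjusted p = 0.00378). Without MEC1 31 d replicate 3 its change at 31 days was 2.05. Of the B cell receptor genes, Cd79a had a change of 0.78 and Cd79b one of -0.18 at 31 days. No p is given for Cd79a, which was under the median of every control array and tested through MEC1 arrays alone, and its change was 0.35 after median centring and 0.535 without MEC1 31 d replicate 3. All 6 tested erythroid markers fell at 31 days (median -6.15, and -6.63 without MEC1 31 d replicate 3). Over all clusters 21.1% fell, and 14.4% without that array. Rhag was 5.97, 4.61 and 7.43 in MEC1 31 d, against 14.30, 14.96 and 15.28 in control 31 d, and Slc4a1 had a change of -8.53 (adjusted p = 0.000213). Gp9 was the one of 4 platelet markers that passed (-1.19, adjusted p = 0.00439, limma), where 21.1% of all clusters fell. Its change was -1.32 without that array. The other platelet markers had slightly higher means in MEC1 31 d. These were 8.96 against 8.86 in control 31 d for Pf4, 4.32 against 4.08 for Ppbp and 5.80 against 5.75 for Itga2b. The part of all these markers in the changes of the 6 genes was not tested.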
